A study of Homo sapiens with 4 samples.

Results

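The mitochondrial control region is the stretch of the genome between the genes for the proline and phenylalanine tRNAs, and in the light-strand file it comprised 1054 of the 16500 positions listed in each library. The members were chosen by position alone: light positions 1 to 546 and 15993 to 16500, on the strand that carries RNA made from the light-strand promoter. A light-strand position pairs with the heavy-strand position that brings the sum to 16569, and the bases of all 16432 pairs present in both files were complementary. The promoter start lies at light 16162 (heavy 407), and every position below is given as a distance from it, with the start base as +1 and the base before it as -1. By this count the region holds 169 nt before the start (light 15993 to 16161, heavy 576 to 408), the first 200 nt after it (light 16162 to 16361, heavy 407 to 208), the next 139 nt from +201 to +339 (light 16362 to 16500), and 546 distal nt from +408 to +953 (light 1 to 546, heavy 16568 to 16023). The 68 positions between +339 and +408 were not analysed here. Coordinates are in the files' own numbering, whose build is not given in the sources used here; the proline tRNA gene ends at heavy 16022 in it, next to the end of the distal block.

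The cells were HEK-293T, a line derived from human embryonic kidney, and the mitochondria were isolated and treated with 1% dimethyl sulfate (DMS) for 5 min at 37 °C. DMS methylates adenine and cytosine that are not held in base pairs, and the reverse transcriptase TGIRT-III then tends to write a wrong base, so the share of mismatched reads reports on pairing. The groups were wild type (2 libraries, labelled biological replicates) and LRPPRC knockout (2 libraries). DMS treatment was common to both, and a library without DMS was not analysed here. Guanine and thymine therefore serve as the background, though in some stretches their values also followed those of the paired heavy-strand bases, by slopes given below. LRPPRC is an RNA-binding protein that stabilises mitochondrial mRNAs; its own transcript comes from the nucleus and was not analysed here, so the labels were not checked by it. The files hold fractions without read counts, the depth and the amount of RNA are therefore unknown, and the number of libraries limits every test: an exact permutation test of 2 libraries against 2 cannot go below p = 0.333.

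The control region holds no protein-coding gene. It carries the promoters of both strands and the sites where replication of mitochondrial DNA begins. RNA from the light-strand promoter has several fates: some molecules are short and polyadenylated (7S RNA), some become primers for DNA synthesis, and some run on around the circle to ND6 and the tRNAs of that strand. A guanine-rich stretch downstream of the promoter, conserved sequence block II, is known for halting the polymerase and for keeping the RNA attached to DNA as a hybrid structure.

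The sequence across the start is shown first because the agreement between replicates changed at this point. Capitals mark the bases from +1 on.
Light 16112 to 16211: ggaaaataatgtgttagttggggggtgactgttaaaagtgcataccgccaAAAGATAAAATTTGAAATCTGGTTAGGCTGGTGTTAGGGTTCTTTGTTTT
The first 200 nt after the start, where 7S RNA lies, are shown once for each genotype. Capitals mark adenine or cytosine with a mean mismatch of at least 2%.
Wild type, +1 to +200: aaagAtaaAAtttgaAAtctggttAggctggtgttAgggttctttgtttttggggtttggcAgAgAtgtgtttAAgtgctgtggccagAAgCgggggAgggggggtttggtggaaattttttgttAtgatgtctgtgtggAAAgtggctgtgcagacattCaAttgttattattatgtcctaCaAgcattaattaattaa
LRPPRC knockout, +1 to +200: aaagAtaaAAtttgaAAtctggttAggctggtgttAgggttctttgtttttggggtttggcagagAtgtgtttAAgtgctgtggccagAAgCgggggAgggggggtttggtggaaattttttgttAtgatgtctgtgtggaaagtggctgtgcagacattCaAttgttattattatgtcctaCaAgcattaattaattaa
In wild type 24 of the 65 adenines and cytosines of these 200 nt reached 2%, and 19 did so in the knockout. All 19 were among the 24. In the next segment 30 bases of 71 reached 2% in wild type and 31 in the LRPPRC knockout, 29 of them in both. In the distal segment the numbers were 124 of 200 and 117 of 200, with 115 in both. Before the start 20 and 19 of 41 bases reached it, and 15 were shared, which is 75.0% of the wild-type list and 78.9% of the knockout list.

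The first comparison set the bases before the start against those after it. Replicates of one genotype differed far more before the start than after it, in wild type and in knockout mitochondria. Over all 4 bases, leaving out positions whose mean mismatch was above 30%, the median difference between wild-type replicates was 0.91 on the log2 scale before the start. It was 0.08 in the first 200 nt, 0.09 in the next segment and 0.10 in the distal one. The knockout replicates differed by 0.72 before the start, and by 0.03, 0.08 and 0.08 in the 3 later segments. Outside the control region the light-strand file gave 0.11 in wild type and 0.08 without LRPPRC, close to the values after the start. This measure was chosen after the values were seen, and no test was made of it.

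The change fell between neighbouring 25-nt bins at the start itself. From -25 to -1 the median replicate difference was 0.40 in wild type and 0.53 in the LRPPRC knockout. From +1 to +25 it was 0.07 and 0.03. The 7 bins before the start ranged from 0.40 to 1.26 in wild type and from 0.47 to 1.06 in knockout mitochondria. In the 36 bins after it with at least 10 positions, the ranges were 0.05 to 0.25 and 0.03 to 0.18, so no bin after the start reached the lowest one before it in either genotype.

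**Figure D1:**
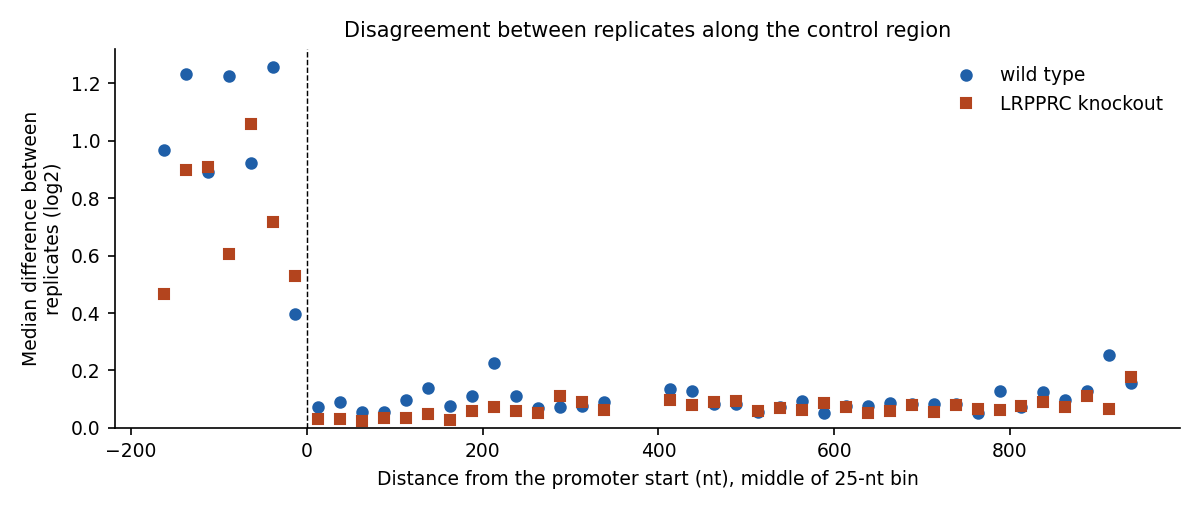
Median absolute difference between the 2 replicates of a genotype (log2 of mismatch fraction plus 0.001, all 4 bases up to 30% mismatch) in 25-nt bins against the distance from the promoter start in nt; blue circles are wild type, red squares the LRPPRC knockout, and the dashed line is the start. All 7 bins before the start lie at 0.40 or above, and the bins after it with at least 10 positions lie at 0.25 or below.

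Exact zeros fell on the same side. Before the start the 169 positions held 34 and 29 zeros in the wild-type libraries and 11 and 18 in the knockout libraries. The 200 nt after the start and the next 139 nt held 0 zeros in each of the 4 libraries, and the distal segment held 3 in each. No zero before the start was at an adenine or cytosine. Without read counts, a zero at low coverage and a zero from an unmodified base cannot be told apart.

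Across the adenines and cytosines, the pattern before the start was only partly shared by replicates. Pearson's r between replicates, over the 41 such positions before the start, was 0.39 in wild type and 0.58 without LRPPRC. It was 0.99 and 1.00 over the 63 tested positions of the first 200 nt, 0.98 and 0.99 over 71 positions of the next segment, and 0.99 and 0.99 over 196 distal positions. Between genotypes the 4 pairs of libraries gave 0.97 in the first 200 nt at the lowest and the highest, and 0.42 to 0.72 before the start. These correlations are across positions of the same libraries and are a description without a test.

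The mean mismatch, in contrast, did not separate the sides. Before the start, the adenines and cytosines averaged 2.17% and 2.41% in the wild-type libraries and 1.95% and 2.07% in the knockout libraries. After it, over 336 positions, they averaged 2.28% and 2.29% in wild type and 2.12% and 2.12% in the LRPPRC knockout. On the log2 scale the mean of the 330 tested positions after the start minus that of the 41 before it was 0.12 and -0.04 in wild type, so the replicates took opposite signs. It was 0.19 and 0.08 in the knockout. The difference between genotypes was 0.10 (knockout minus wild type, exact permutation p = 0.667, two-sided), and it ranged from 0.02 to 0.17 when each library was left out. It was 0.01 for adenine alone and 0.30 for cytosine alone. For guanine and thymine the same quantity was 0.18 and -0.12 in wild type and -0.06 and 0.06 in knockout mitochondria (difference -0.03, exact permutation p = 1).

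**Figure D2:**
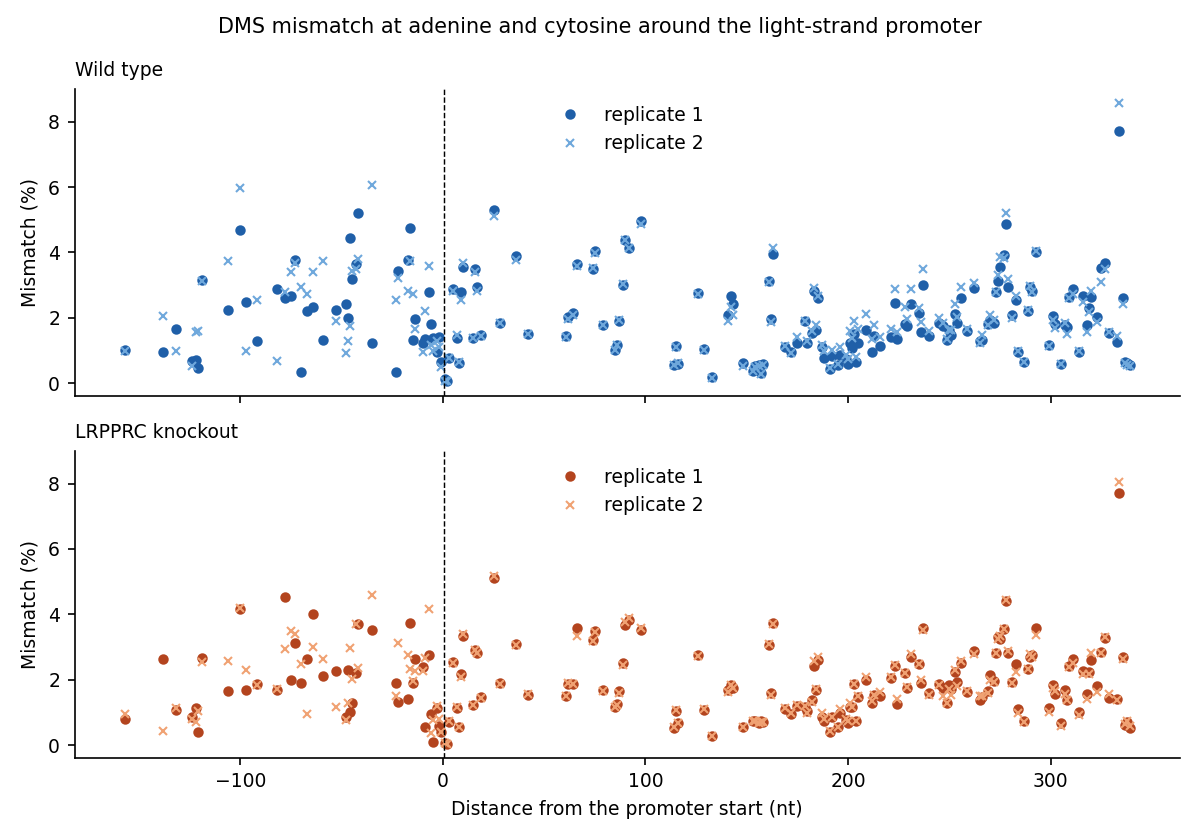
Mismatch in percent at each adenine and cytosine from -169 to +339, against the distance from the promoter start in nt, with wild type above and the LRPPRC knockout below; filled circles are replicate 1, crosses replicate 2 and the dashed line is the start. Before the start the replicates often disagree, and in the first 200 nt circle and cross mostly coincide (r = 0.99 in wild type).

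Mismatches lay on the bases that DMS modifies in every segment. With positions above 30% left out, adenine and cytosine exceeded guanine and thymine before the start by a ratio of 3.81 ± 0.114 in wild type and 3.61 ± 0.317 without LRPPRC (mean ± SD, n = 2 libraries each). Over the first 200 nt it was 3.30 ± 0.0376 for wild type and 3.56 ± 0.0428 in the LRPPRC knockout, 5.63 ± 0.201 and 5.03 ± 0.108 over the next segment, and 4.67 ± 0.0494 and 4.65 ± 0.0108 over the distal one. Between genotypes the ratio did not overlap in the first 200 nt and in the next segment (exact permutation p = 0.333 each, the lowest possible) and overlapped in the others. The difference before the start, -0.19, became 0.03 without knockout replicate 1. Over the rest of the light-strand file it stood at 0.722 ± 0.0220 in wild type, where guanine and thymine (1.91%) exceeded adenine and cytosine (1.38%), and 2.50 ± 0.0382 in the knockout. In all 4 libraries each segment's ratio stood above that of the rest of the file with positions above 30% left out; no test of this was made.

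A few sites of almost complete mismatch lower these ratios when they are kept. With every position included it came to 1.77 in wild type and 1.97 in knockout mitochondria over the first 200 nt, 1.32 and 1.24 over the next segment, and 1.55 and 1.44 over the distal one. The rest of the file then had 0.733 and 2.26, so the knockout's 3 segments after the start lay below it. For all positions after the start the ratio was 1.56 and 1.50, a difference of -0.06, which became 0.06 when positions above 30% were left out.

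**Figure D3:**
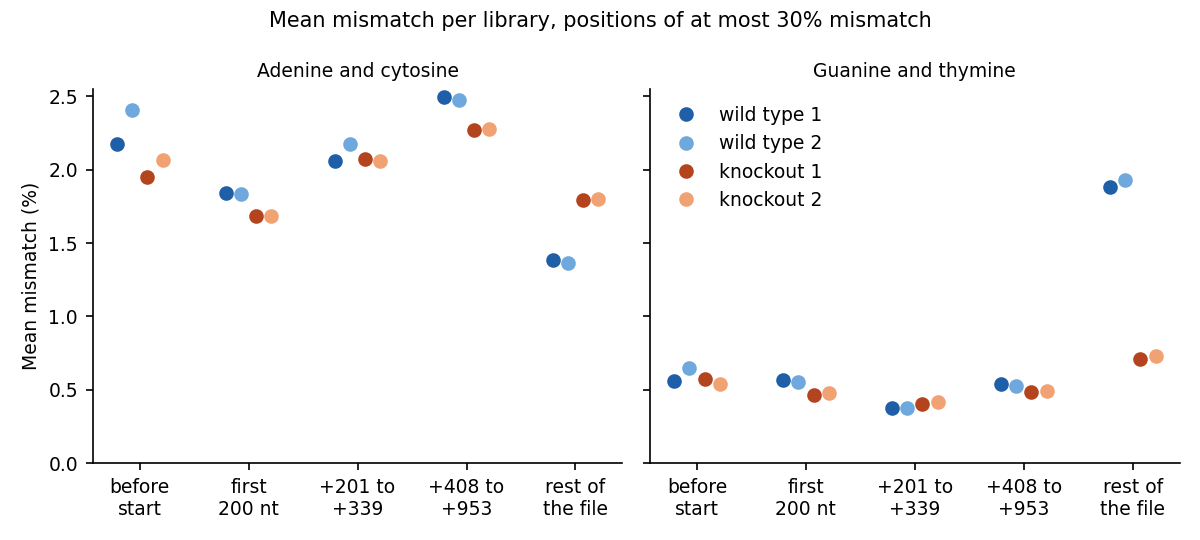
Mean mismatch in percent per library in the 4 segments and in the rest of the light-strand file, for adenine and cytosine on the left and guanine and thymine on the right, with positions above 30% left out; each point is 1 library, blue for wild type and red for the LRPPRC knockout. The wild-type libraries have guanine and thymine at 1.88% and 1.93% in the rest of the file and between 0.376% and 0.646% in the control region.

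Adenine carried more signal than cytosine in every segment and library. In the first 200 nt the 48 adenines averaged 1.95% and 1.94% in wild type and 1.75% in each knockout library. The 17 cytosines averaged 1.53% ± 0.00233 in wild type and 1.49% ± 0.00957 without LRPPRC (SD, n = 2). In the distal segment the 122 adenines averaged 2.89% and 2.88% in wild type and 2.67% and 2.69% in the LRPPRC knockout, and the 78 cytosines 1.87% and 1.84%, and 1.65% and 1.64%. Each of these means was lower in both knockout libraries than in both wild-type libraries (exact permutation p = 0.333, the lowest possible). In the segment from +201 to +339 adenine did not separate the genotypes, at 2.30% and 2.45% in wild type and 2.33% and 2.32% in knockout mitochondria.

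The second comparison asked how the knockout differed from wild type at each position. At the tested adenines and cytosines the control region moved little, while the rest of the light-strand file stood higher in the knockout. Without centring, the mean log2 level was lower in the knockout by small amounts: the difference was -0.18 before the start, -0.06 in the first 200 nt, -0.01 in the next segment and -0.12 in the distal one. The exact permutation p was 0.333 for all of these except the segment from +201 to +339, where it was 1. Over the 5173 tested positions outside the region the difference was 0.41. The median of the whole file shifted by 0.54 between genotypes, from -6.12 and -6.17 in the wild-type libraries to -5.61 and -5.60 in the knockout libraries. Relative to that shift, the segments stood at -0.73, -0.60, -0.56 and -0.66. Other values outside the region changed as well. With every position included, guanine and thymine there fell from 2.04% in wild type to 0.846% in the knockout. The slope of light guanine and thymine on the paired heavy cytosine and adenine fell there from 57.2% to 30.7%. The bearing of these changes on the shift of 0.54 was not tested.

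Counts of positions followed the scaling. After centring each library on its file median, limma called 333 of the 371 tested positions of the region lower in the knockout and 3 higher, at an adjusted p under 0.05. Over the file it called 50.7% of tested positions lower and 24.6% higher. Without centring, 105 positions of the region were called lower and 13 higher, against 14.3% lower and 46.2% higher over the file. Centred instead on the region's own positions after the start, a choice made after the data were seen, 24 were lower and 33 higher. These are 6.47% and 8.89% of the region's tested positions, against 6.73% lower and 56.1% higher in the rest of the file. The direction called for a position of the region therefore depends on what it is set against, and the values below give the percentages themselves first.

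**Figure D4:**
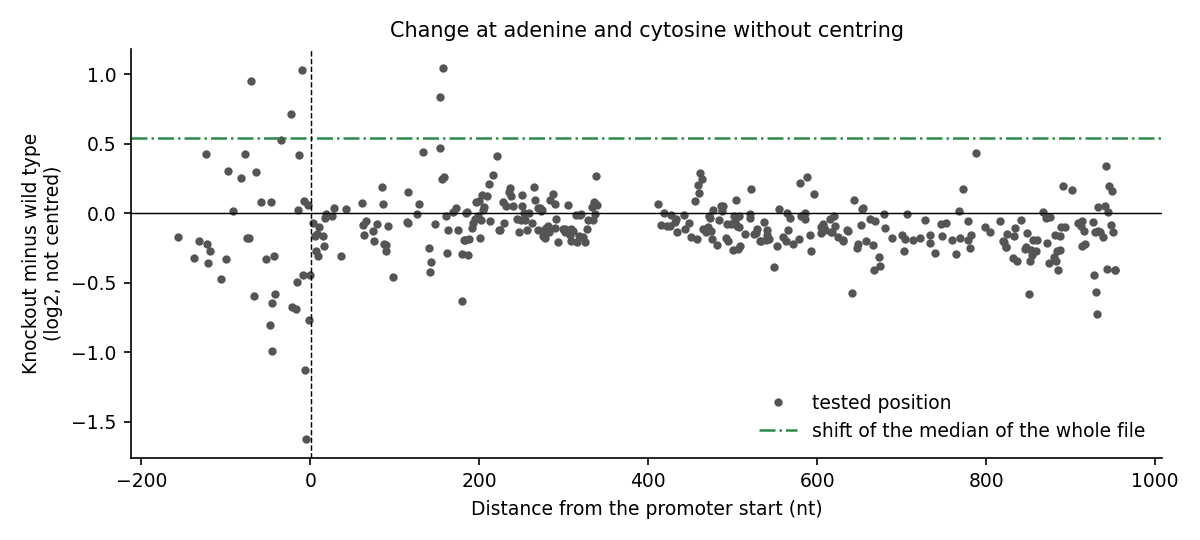
Knockout minus wild type on the log2 scale, not centred, at each tested adenine and cytosine against the distance from the promoter start in nt; each dot is a position, the dashed line is the start, and the green line is the shift of the file median (0.54). Most positions lie near 0 and below the green line, with a wide scatter before the start.

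By segment and without centring, limma called 6 of 41 positions before the start, 26 of 63 in the first 200 nt, 5 of 71 in the next segment and 81 of 196 in the distal one. These are 14.6%, 41.3%, 7.04% and 41.3% of the tested positions, against 62.6% in the rest of the file. Of the distal calls 75 were lower in the knockout, and of those in the first 200 nt 22 were lower. In the rest of the file 13.3% of tested positions were called lower and 49.3% higher. The median change over the region was -0.11 beside 0.22 over all tested positions of the file.

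All 19 windows of 50 nt that lie inside the region were lower in the knockout after centring, by -0.79 to -0.50. Over the file 62.2% of windows were called lower and 28.3% higher. Without centring 12 of the 19 were lower and 0 higher, against 24.1% lower and 56.4% higher over the file. The window from +808 to +857 (light 401 to 450) had means of 2.66% and 2.71% in wild type and 2.26% and 2.32% without LRPPRC, a difference of -0.23 without centring (limma adjusted p = 6.52e-05). The window from -61 to -12 had 2.75% and 2.88% in wild type and 2.15% and 2.36% in the LRPPRC knockout (difference -0.24, limma adjusted p = 0.0104). The window from +190 to +239 had means of 1.37% and 1.66% in wild type and 1.56% and 1.60% in knockout mitochondria, and the genotypes overlapped (difference 0.05, limma adjusted p = 0.608). It was among the less reproducible stretches after the start: in the bin from +201 to +225 the wild-type replicates differed by a median of 0.22.

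The first bases after the start had low mismatches. The adenine at +1 had mismatches of 0.142% and 0.0780% in wild type and 0.0610% in each knockout library. The adenine at +2 had 0.0760% and 0.0570%, and 0.0420% and 0.0440%. Both means lay under the 0.2% needed for the test, and the adenine at +3 already had 0.776% and 0.762% in wild type and 0.718% and 0.738% without LRPPRC. At +3 both knockout libraries lay below both wild-type libraries, but the difference without centring missed the threshold (difference -0.07, SE 0.08, limma adjusted p = 0.475).

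The highest of the adenines and cytosines in the first 200 nt was the adenine at +25 (light 16186, heavy 383). Its mismatches were 5.30% and 5.13% in wild type and 5.11% and 5.17% in the LRPPRC knockout, so the genotypes overlapped (difference -0.02 without centring, SE 0.03, limma adjusted p = 0.629). Reads with a deletion there made up a further 3.03% and 2.97% in wild type and 2.26% in each knockout library, so the deletions were fewer in both knockout libraries. The mean deletion at the 48 adenines of this segment was 0.231% and 0.230% in wild type and 0.177% and 0.176% in knockout mitochondria.

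The next highest adenine lay in a guanine-rich stretch, directly before the longest run of guanines in the region. This stretch corresponds to conserved sequence block II, and its sequence is given because its guanines include the lowest guanines after the start while the adenine between them was among the highest adenines and cytosines. Capitals mark the guanine runs and that adenine.
Light 16244 to 16276 (heavy 325 to 293): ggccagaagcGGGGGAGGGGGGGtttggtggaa
The run of 5 guanines (+93 to +97) averaged 0.0784% and 0.0704% in wild type and 0.0514% and 0.0516% without LRPPRC. The run of 7 (+99 to +105) averaged 0.0734% and 0.0609%, and 0.0394% and 0.0417%. In both runs the 2 knockout libraries lay below the 2 wild-type libraries (exact permutation p = 0.333, the lowest possible). The other 46 guanines of the first 200 nt, outside runs of at least 4, averaged 0.546% in wild type and 0.406% in the LRPPRC knockout. All 10 of the lowest guanines after the start lay in these 2 runs.

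The adenine at +98 (light 16259, heavy 310), between the runs, had mismatches of 4.95% and 4.88% in wild type and 3.53% and 3.57% in knockout mitochondria. It was lower in both knockout libraries with each scaling (difference -0.46 without centring, SE 0.03, limma adjusted p = 0.000407). The paired base of the heavy-strand file, a thymine, went the other way, from 6.9% and 6.4% in wild type to 9.1% and 9.3% in the knockout. In each library this thymine, a background base, had a higher mismatch than the adenine. The adenine at +90 had 4.39% and 4.40% in wild type and 3.69% and 3.77% without LRPPRC (difference -0.23, limma adjusted p = 0.00400). The cytosine at +92, directly before the runs, had 4.12% and 4.13%, and 3.84% and 3.88%, and its difference of -0.09 missed the threshold without centring (limma adjusted p = 0.0552). The adenine at +163 was the fifth of the highest adenines and cytosines, with 3.96% and 4.13% in wild type and 3.73% and 3.70% in the LRPPRC knockout (difference -0.12, limma adjusted p = 0.0431).

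**Figure D5:**
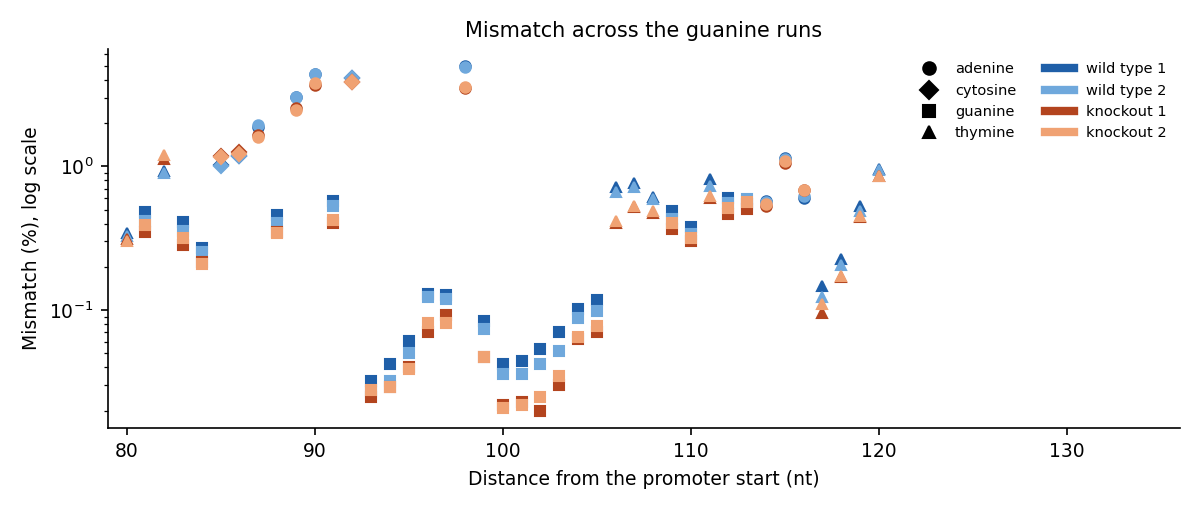
Mismatch in percent on a log scale around the guanine runs against the distance from the promoter start in nt; the shape of a point gives the base, and the colour gives the library (blue wild type, red LRPPRC knockout). The guanines from +93 to +105 lie near or below 0.1%, the adenine between them at 3.5% to 5.0%, and both knockout libraries fall below wild type at that adenine.

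The positions that rose after centring were 3 in number, and 2 of them lay 4 nt apart in the first 200 nt. Fewer rose than the 5 that were to be named. The sequence around both is given with each cytosine and the adenine after it in capitals; the adenines were chosen after their values were seen.
Light 16306 to 16330 (heavy 263 to 239): tggctgtgCAgaCAttcaattgtta
The cytosine at +153 (light 16314) had 0.377% and 0.374% in wild type and 0.749% and 0.746% in knockout mitochondria. The cytosine at +157 (light 16318) had 0.311% and 0.287%, and 0.730% and 0.716%. Knockout libraries were higher at both bases with no overlap, by 0.83 and 1.05 without centring (SE 0.10 and 0.11, limma adjusted p = 0.00231 and 0.00170). After centring the differences were 0.29 and 0.50 (limma adjusted p = 0.0492 and 0.0124). The centred call at +153 was lost when any one library was left out (adjusted p = 0.0735 to 0.197), and that at +157 without either knockout library (0.0752 and 0.0636). With a pseudocount of 0.01 the centred differences were -0.0097 and 0.05, and neither was called.

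Their neighbours moved less. The adenine at +154 had 0.530% and 0.484% in wild type and 0.749% and 0.732% without LRPPRC (0.47 without centring, limma adjusted p = 0.0138, and -0.07 with it). The adenine at +156, between the 2 cytosines, had 0.569% and 0.528%, and 0.669% and 0.671% (0.25 without centring, limma adjusted p = 0.0807). The adenine at +158 had 0.585% and 0.565%, and 0.710% and 0.704% (0.26 without centring, limma adjusted p = 0.0594). At the guanines and thymines beside them the gaps were smaller. The thymine at +151 had 0.303% and 0.291% in wild type and 0.305% and 0.297% in the LRPPRC knockout. The guanine at +152 had 0.226% and 0.211%, and 0.240% and 0.232%. That at +155 had 0.183% and 0.164%, and 0.189% and 0.203%, so both guanines were higher in both knockout libraries. In the heavy-strand file the base paired with +153 moved the same way, from 0.468% and 0.440% to 0.894% and 0.884%. The base paired with +157 had 0.621% and 0.564% in wild type and 0.629% and 0.800% in knockout mitochondria.

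The cytosine at +179 (light 16340) had the largest fall of the first 200 nt without centring, from 1.89% and 1.91% in wild type to 1.18% and 1.21% in the knockout. The difference was -0.63 without centring (SE 0.05, limma adjusted p = 0.000564).

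The other base that rose after centring lay before the start, the cytosine at -10 (light 16152, heavy 417). Its mismatches were 1.24% and 0.952% in wild type and 2.38% and 2.27% without LRPPRC, a difference of 1.03 without centring and 0.49 with it (limma adjusted p = 0.00260 and 0.0143). The centred call was lost without knockout replicate 1 (adjusted p = 0.0621). The largest centred falls among called positions were mostly in the same stretch. The cytosine at -6 had 1.80% and 1.16% in wild type and 0.943% and 0.382% in the LRPPRC knockout (-1.13 without centring, limma adjusted p = 0.0819). The cytosine at -2 had 1.41% and 1.10%, and 0.592% and 0.801% (-0.77, limma adjusted p = 0.0222).

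Further before the start, the adenine at -45 had 3.20% and 3.43% in wild type and 1.29% and 2.03% in knockout mitochondria (-0.99 without centring, limma adjusted p = 0.0166). The adenine at -48 had 2.42% and 0.913%, and 0.875% and 0.760%, with the wild-type replicates farther apart than the group means (-0.80, limma adjusted p = 0.192). All of these positions lie where replicates of one genotype differed by a median of 0.91 in wild type and 0.72 without LRPPRC, and the part of that spread in their changes was not tested.

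In the distal segment the largest fall was at the adenine at +931 (light 524, heavy 16045), with 0.455% and 0.387% in wild type and 0.224% and 0.206% in the LRPPRC knockout (-0.72 without centring, limma adjusted p = 0.0202). The adenine at +851 had 1.09% and 1.12%, and 0.708% and 0.705% (-0.58, limma adjusted p = 0.00221). The adenine at +788 rose without centring, from 1.22% and 1.15% to 1.68% and 1.57% (0.43, limma adjusted p = 0.00484), and its centred difference was -0.11. At the last base before the proline tRNA gene, the adenine at +953, mismatches were 5.18% and 4.22% in wild type and 3.71% and 3.30% in knockout mitochondria (-0.41 without centring, limma adjusted p = 0.0383).

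Levels varied along the distal segment, and the windows with the highest and the lowest wild-type mean are shown with the bases of at least 2% in wild type in capitals.
Highest, +708 to +757 (light 301 to 350): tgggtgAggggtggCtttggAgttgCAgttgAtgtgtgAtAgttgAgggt
Lowest, +458 to +507 (light 51 to 100): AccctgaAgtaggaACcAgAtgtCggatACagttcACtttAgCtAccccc
The first of these averaged 3.50% and 3.52% in wild type and 3.14% and 3.16% without LRPPRC, and all 9 of its tested bases reached 2% in wild type. The other averaged 1.90% and 1.87%, and 1.81% and 1.77%, and 14 of its 29 tested bases reached 2%. The fall was called without centring in the window of the highest mean (-0.15, limma adjusted p = 2.27e-05) and not in the other (-0.05, limma adjusted p = 0.157).

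Predicted pairing followed the signal loosely. RNAplfold computed the probability that each base is unpaired from sequence alone, and over the 330 tested positions after the start Spearman's rho between this and the mismatch was 0.349 ± 0.00829 in wild type and 0.355 ± 0.000889 in the LRPPRC knockout (SD, n = 2 libraries each). The 57 bases with a predicted unpaired probability above 0.8 averaged 2.84% in wild type and 2.60% in knockout mitochondria. The 113 bases below 0.2 averaged 1.76% and 1.63%. The group above 0.8 held 49 adenines and 8 cytosines, and that below 0.2 held 34 and 79. The pooled values therefore mix pairing with the difference in level between the bases. For adenine alone (207 positions) rho was 0.214 for wild type and 0.202 without LRPPRC, and for cytosine (123) 0.311 and 0.310. Adenines averaged 2.93% above 0.8 and 2.14% below 0.2 for wild type, and 2.68% and 2.00% without LRPPRC. Cytosines averaged 2.27% and 1.60%, and 2.08% and 1.47%. With both bases pooled, rho in the first 200 nt was 0.343 in wild type and 0.287 without LRPPRC, over 63 positions. In the distal segment it was 0.436 and 0.440, over 196. These are correlations across positions, which share libraries and sequence, and they have no test.

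The paired positions of the heavy-strand file gave another view of the same stretch. Within the first 200 nt the guanines and thymines of the heavy-strand file averaged 1.86% in wild type and 1.71% in the LRPPRC knockout, above its adenines and cytosines at 0.632% and 0.475%. These guanines and thymines pair with the cytosines and adenines of the light-strand file. The slope of their values on those of the light-strand bases was 63.7% ± 1.17 in wild type and 75.0% ± 7.14 in knockout mitochondria (SD, n = 2). The reverse slope, of light guanine and thymine on paired heavy cytosine and adenine, was 107.8% in wild type and 108.4% in knockout mitochondria. In the next segment this reverse slope was 2.98% and 40.9%, and in the distal segment 1.82% and 9.82%. Before the start it was -12.8% and -17.9%.

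In the later segments adenine and cytosine of the heavy-strand file were lower in the knockout, and guanine and thymine higher. From +201 to +339, its adenine and cytosine went from 1.75% and 1.66% to 0.591% and 0.572%, while its guanine and thymine went from 1.51% and 1.53% to 2.05% and 2.06%. Over the distal positions that have a heavy-strand partner (478 of 546), adenine and cytosine went from 2.47% and 2.42% to 1.11% and 1.10%, and the slope of heavy guanine and thymine on light cytosine and adenine went from 27.5% and 32.2% to 62.7% and 66.6%. The genotypes did not overlap in any of these values (exact permutation p = 0.333, the lowest possible).

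Before the start, heavy guanine and thymine showed no such slope on the light bases. It was -4.14% and -1.34% in wild type and 1.95% and -9.64% without LRPPRC.

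Of the 1054 positions, 6 had a mean mismatch above 30%, and all were guanine or thymine, bases at which this assay does not read DMS. The thymine at +578 (light 171) had 94.1% in each wild-type library and 94.5% and 95.2% in the knockout. The guanines at +707, +721 and +785 (light 300, 314 and 378) lay between 91.1% and 96.0% in all libraries. The thymine at +335 (light 16496) had 83.3% and 83.9% in wild type and 85.8% and 85.9% in the LRPPRC knockout. The heavy-strand file also had mismatches of at least 74.9% at each of these paired positions.

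The thymine at +145 (light 16306, heavy 263) stood apart from those. It had 70.1% and 61.3% in wild type and 52.3% and 51.7% in knockout mitochondria, while the paired position of the heavy-strand file had 93.5% and 93.9%, and 92.0% and 92.4%. The knockout libraries lay below both wild-type libraries in the light-strand file (exact permutation p = 0.333, the lowest possible).

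Among the guanines and thymines below 30%, the guanine at +70 (light 16231, heavy 338) was the highest after the start, a position chosen after its values were seen. Its mismatches were 9.77% and 9.78% in wild type and 5.36% and 5.69% without LRPPRC, and the paired heavy-strand cytosine had 7.14% and 7.41%, and 4.01% and 4.15%. The genotypes did not overlap in either file (exact permutation p = 0.333, the lowest possible).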

How the data were processed

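Mitochondria from wild-type (n = 2) and LRPPRC-knockout (n = 2) HEK-293T cells were probed with DMS. The authors deposited, per the file headers, a mismatch fraction for each position and strand, and a second fraction that includes deletions. Alignment was to the mitochondrial genome (series' design text), and cutadapt and Bowtie2 are named in the submitters' processing notes; versions, build and filters are not given in the sources used here. The tables held 0 columns of other samples. Tested positions were adenine or cytosine with a mean fraction of 0.002 to 0.3 (5544 in the light-strand file, 371 in the region; 6 fell under the lower limit). Values were log2(fraction + 0.001), centred on the library's median over the tested positions of the file, or not centred where stated; the log2 scale understates changes at low positions. Positions and 50-nt windows with at least 8 tested positions were fitted over the whole file with limma 3.58.1 in R 4.3.3 (two-sided, trend, Benjamini-Hochberg), checked on simulated data. Library values were compared by exact permutation tests in Python 3.11.15. RNAplfold 2.7.2 used a window of 240 and a span of 160. P-values set differences against the spread between libraries labelled biological replicates. For limma this spread is shared over the positions or windows of the same libraries, so its p-values can fall below the limit of the exact tests. Named positions were the 5 largest rises and falls among called positions, the 5 highest of the first 200 nt and all above 0.3; others named were chosen after their values were seen. Members and lists were chosen with earlier results of these data known.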

Additional observations from a re-analysis of the deposited data

How the results depend on the processing

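The direction of each segment's change was the same under every processing tried except 1. Centring on the region's own positions, chosen after seeing the data, turned the change to 0.0533 in the first 200 nt, 0.0938 from +201 to +339 and 0.0222 over all positions after the start. Counts of lower positions were 105 without centring, 24 with that centring, 210 for adenine alone and 122 for cytosine alone, where fewer positions are tested, and 314 to 332 when each library was left out. Counts of higher positions were 13 without centring, 33 with the region's own centring, 5 with quantile normalization, 1 with a pseudocount of 0.01, 1 with a mean fraction of at least 0.01, 0 for adenine alone, and 0 to 5 when each library was left out. Lower windows numbered 12 without centring, 3 with the region's own centring, where 3 windows were higher, 5 for cytosine alone, and 18 to 19 when each library was left out. With the region's own centring, 5.21% of windows in the rest of the file were lower and 65.3% higher. The ratio of adenine and cytosine to guanine and thymine changed by 0.0551 after the start without positions above 0.3, against -0.0575 with them, and before the start by -0.414 to 0.0339 when each library was left out. Spearman's rho in the knockout was 0.365 with a folding window of 100. Of the named positions, +153 changed sign with a pseudocount of 0.01 (-0.0097), +92 and +25 with the region's own centring (0.0145 and 0.0883), and +154 and +158 without centring (0.47 and 0.26) and with the region's own centring (0.58 and 0.37). The cause of these shifts was not tested. With the replicate number as a replicate block, 338 positions were lower and 2 higher, and all 19 windows were lower. After centring, deviations of same-numbered libraries correlated at 0.0449 over 5544 positions of the whole file. Centring removes a shift of a whole library, and the region was not taken alone, so a pairing of either kind was not tested. The numbers were used as names in the main fit. Leaving out a library leaves a lone sample assumed to vary like the other group. The alternative that adds the positions between the blocks was not run, since those positions were not analysed here. The depth behind each fraction is unknown.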
